A study of Mus musculus with 7 samples.

Results

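The genes followed here were 34 hypoxia-response genes outside the core of glycolysis, out of 25461 genes in the deposited table of whole mouse embryos. They were chosen by gene symbol, with the difference between SLMAP3 knockout (KO) and wild-type (WT) embryos already known, so the KO and WT values of these 34 genes are a description, and the limma counts and intervals given for them carry no weight as tests. All 34 symbols were found in the table, and all 34 had a mean of at least 1 FPKM (fragments per kilobase of transcript, scaled to the library's mapped fragments) over the embryos, the level above which 16095 genes were tested.

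The embryos were at embryonic day 11.5 on the B6C3F1 strain, 3 of them KO and 4 WT, and the body without the tail, which was used for genotyping, gave the RNA. In the KO, exon 3 of Slmap had been flanked by loxP sites and removed with CMV-cre, a general deleter, after which the cleaved allele was bred on without cre, and heterozygous parents gave both genotypes. The labels name the KO embryos KOAC8-6, KOAC10-5 and KOAC10-8 and the WT embryos KOAC8-1, KOAC10-7, KOAC9-1 and KOAC10-2, without saying what the series KOAC8, KOAC9 and KOAC10 stand for. Each embryo was 1 library, with a relative depth between 0.805 and 1.20, and values are given below in the order of these names.

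Slmap, at chr14:26413168-26534931 in GRCm38, was read first as a check of the labels. Its FPKM values were 19.6, 16.0 and 16.6 in the KO embryos and 31.2, 23.9, 29.1 and 22.8 in the WT embryos. All 3 KO embryos were below all 4 WT embryos, with means of 17.4 ± 1.92 (SD, n = 3) and 26.7 ± 4.04 (SD, n = 4). The value is summed over all Slmap transcripts, so it does not separate SLMAP3 from the shorter SLMAP forms or from transcripts that lack exon 3, and is only a partial check.

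When oxygen is plentiful, prolyl hydroxylases of the EGLN family mark the alpha subunits of the hypoxia-inducible factors (HIF), and VHL sends the marked subunits to degradation. When oxygen is scarce, the alpha subunits persist, pair with ARNT and bind short motifs near genes for blood vessel growth, glucose uptake, lactate export, mitochondrial turnover and collagen folding. The subunits are controlled mainly as proteins, while their targets, which include several EGLN genes, are controlled as transcripts. The embryo of this age lives in low oxygen, and HIF activity is needed for its placenta, heart and vessels.

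Embryo KOAC10-8 stood apart from the rest before any member was considered. It held the highest value of the 7 embryos in 26.4% of the 16095 genes tested, against 10.3% to 16.9% for the others. Its summed FPKM was also the largest, at 861448 against 770063 to 813357, and after rescaling to a common sum it held the highest value in 9.73% of genes, or in 21.4% after quantile normalization. Its transcripts of the integrated stress response, the program driven by the factor ATF4, were high: Chac1, a glutathione-degrading enzyme, was at 29.6 FPKM against 0.360 to 1.36 in the other embryos. In all 11 genes of that list KOAC10-8 exceeded every WT embryo. Over all genes tested it did so alone in 14.2%, with KOAC8-6 in 9.11%, with KOAC10-5 in 3.89% and with both in 5.61%. Its median over the list, as log2(FPKM + 1) minus the WT mean, was 1.94, against 0.34 in KOAC8-6 and -0.02 in KOAC10-5. Liver transcripts split the embryos along another line. The 8 markers of fetal liver, of which Afp was the most abundant, summed to 416, 25.4 and 499 FPKM in the KO embryos and 774, 36.9, 607 and 42.7 FPKM in the WT embryos, and 7 of the 8 were nearly absent from 1 KO embryo (KOAC10-5) and 2 WT embryos (KOAC10-7 and KOAC10-2). Ttr, the transport protein transthyretin, went by genotype instead, at 14.4, 15.3 and 15.1 FPKM in KO and 46.4, 32.3, 53.1 and 35.3 FPKM in WT, with a log2 fold change of -1.40 and a limma adjusted p of 0.0891. In such whole-embryo libraries, fewer cells of a type and less RNA per cell cannot be told apart.

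Of the 34 hypoxia-response genes, 26 had a higher mean and 8 a lower mean in the KO embryos, on the log2(FPKM + 1) scale used for every fold change here. Over all genes tested, 8554 had a higher and 7541 a lower mean. The median log2 fold change of the 34 was 0.29, beside 0.01 over all genes tested. With limma and Benjamini-Hochberg adjustment over the 16095 genes, 0 of the 34 passed an adjusted p of 0.05, where 0.0373% of all genes did. At an unadjusted p under 0.05 there were 15 of the 34, all of them higher in KO, where 11.5% of all genes passed in either direction and 5.27% passed as higher. Without KOAC10-5 the 15 became 9, although 2630 genes in all then passed in place of 1846. Nothing is read from these counts, since the genes were selected on this contrast.

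**Figure D1:**
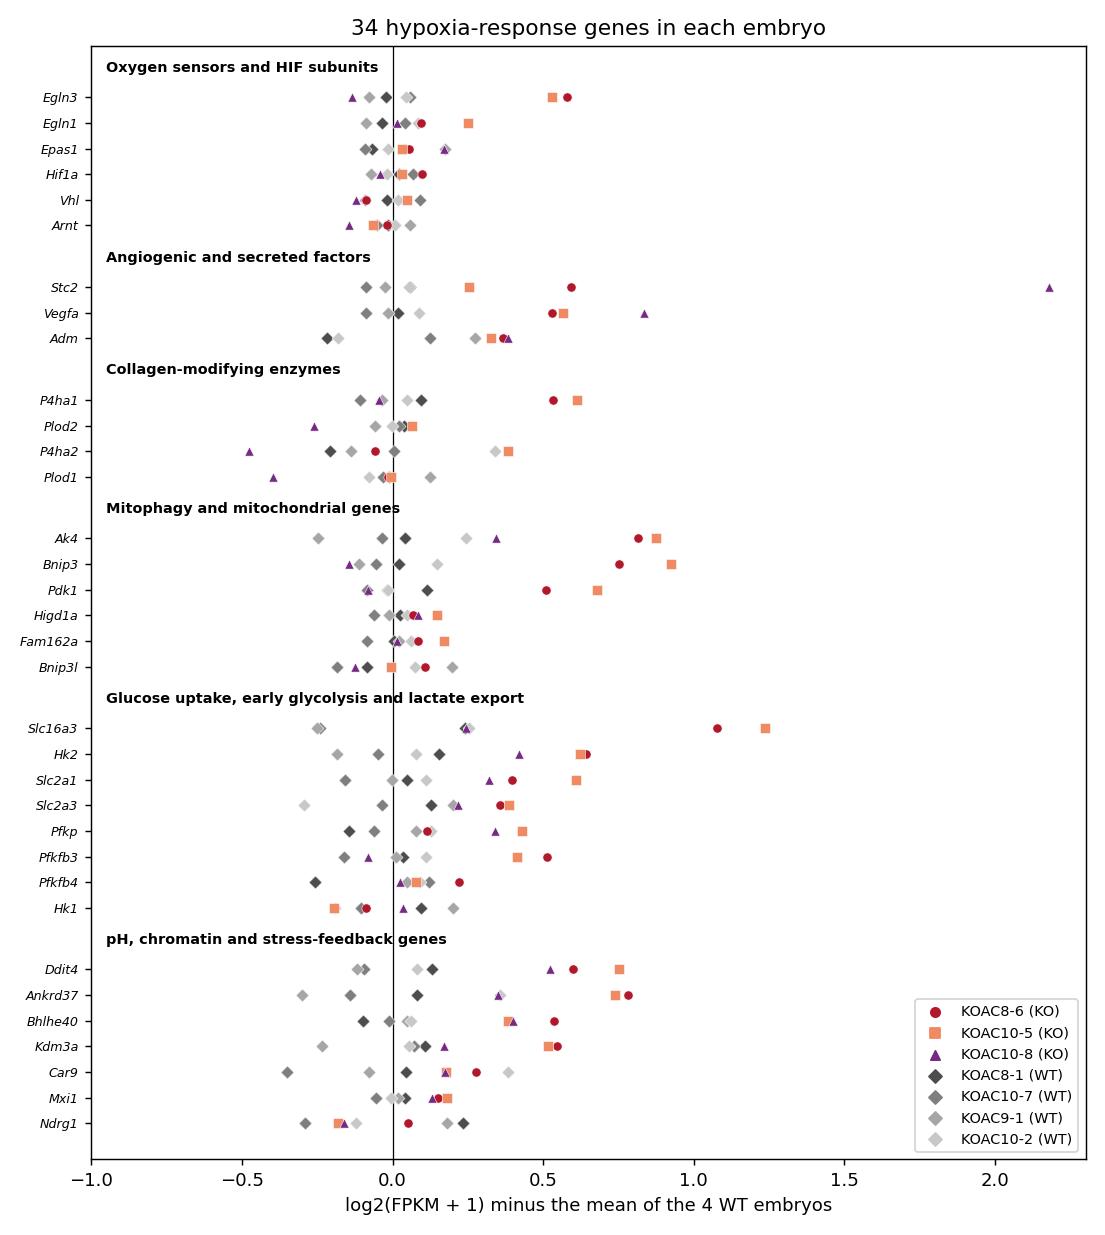
The x axis gives log2(FPKM + 1) of each gene minus the mean of the 4 WT embryos, with 1 symbol per embryo and the 34 genes grouped by role. Circles and squares (KOAC8-6 and KOAC10-5) lie to the right for most genes outside the HIF subunits and collagen enzymes. Exceptions are Hk1, Ndrg1, Bnip3l and Vhl, where the circle, the square or both lie at or left of the WT mean. Triangles (KOAC10-8) often lie among the WT diamonds, as for Bnip3, Pdk1 and P4ha1.

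The excess was carried unequally by the 3 KO embryos. The median over the 34 genes, relative to the WT mean, was 0.32 in KOAC8-6 and 0.35 in KOAC10-5, and 0.06 in KOAC10-8. The 4 WT embryos lay at 0.03, -0.06, -0.02 and 0.06, so KOAC10-8 sat at the upper edge of the WT range while the other KO embryos were well outside it. The highest value of the 7 embryos was in KOAC10-5 for 15 of the 34 genes and in KOAC8-6 for 8, beside 10.3% and 13.4% of all genes. KOAC10-8 held the highest value for 3 genes (8.82%, beside 26.4% of all genes) and the lowest for 7 (20.6%, beside 18.9%). Among the WT embryos, KOAC10-7 held the lowest value for 13 genes (38.2%, beside 13.3%).

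All 3 KO embryos exceeded all 4 WT embryos in 12 of the 34 genes, a pattern that 5.61% of all genes showed. These were Vegfa, Adm, Stc2, Higd1a, Ak4, Slc2a1, Slc2a3, Hk2, Kdm3a, Mxi1, Bhlhe40 and Ddit4. After rescaling to a common sum 8 genes showed it, with Higd1a, Ak4, Slc2a3, Kdm3a and Mxi1 lost and Pfkp gained, beside 5.01% of all genes. Another 10 exceeded every WT embryo in KOAC8-6 and KOAC10-5 but not in KOAC10-8, against 2.64% of all genes: Egln1, Egln3, P4ha1, Plod2, Bnip3, Fam162a, Pdk1, Pfkfb3, Slc16a3 and Ankrd37. The pair KOAC8-6 and KOAC10-8 alone, which 9.11% of all genes showed, occurred in 0 of the 34, and so did KOAC10-8 alone, which 14.2% showed. Pfkp exceeded the WT embryos in KOAC10-5 and KOAC10-8, Hif1a and Pfkfb4 in KOAC8-6 alone, and P4ha2 in KOAC10-5 alone. The other 8 members, Epas1, Arnt, Vhl, Plod1, Bnip3l, Hk1, Car9 and Ndrg1, exceeded all WT embryos in none of the KO embryos. In 0 of the 34 were all KO embryos below all WT embryos, against 5.98% of all genes.

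**Figure D2:**
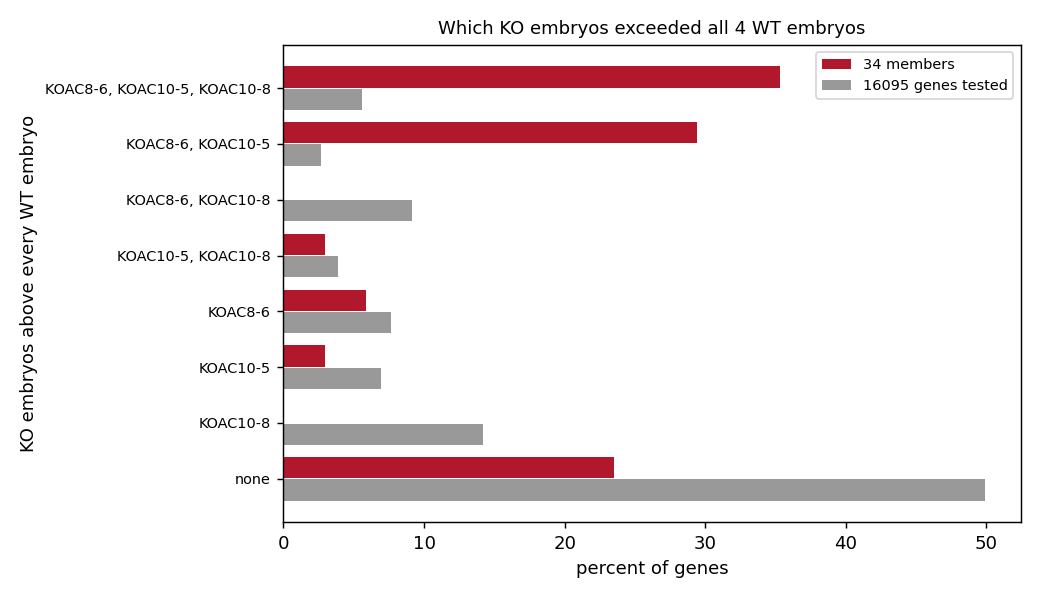
Bars give the percent of the 34 members (red) and of the 16095 genes tested (grey) in which exactly the named KO embryos lay above all 4 WT embryos. The members fill the top pair of patterns, with 35.3% and 29.4% against 5.61% and 2.64%, and are absent from the patterns in which KOAC10-8 stands alone or with KOAC8-6.

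Without KOAC10-8 the 12 genes whose groups did not overlap became 22, which is by construction the sum of the first 2 patterns, beside 8.25% of all genes. The median log2 fold change was 0.31 without KOAC10-8. Without KOAC8-6 it was 0.19 and without KOAC10-5 it was 0.22. Within the label series KOAC8, with 1 embryo of each genotype, the median difference was 0.30 and 29 of the 34 genes were higher in the KO embryo. Within KOAC10, with 2 embryos of each, it was 0.19 and 26 of the 34 were higher, while KOAC9 held 1 WT embryo only. The same values over all genes were not taken within a series, so nothing is read from these counts.

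The DNA upstream of these genes was read next, because the members that moved together could be compared for the letters that HIF recognizes. Sequences were taken from RefSeq (GRCm38.p6), which listed a start site for 28 of the 34 genes, and the 250 bases before each start were searched on both strands for ACGTG and GCGTG. A run of CACGTG holds ACGTG on each strand and counts as an overlapping pair. Some of the listed starts lie inside the annotated gene, and matches before them were counted as well. Vegfa is such a case, for its only matches, at chr17:46025346-46025405, lie within the gene. One or more matches lay before a start of 27 of the 28 genes (96.4%), the exception being Vhl, against 60.6% of the 11144 tested genes with a listed start. Since the 34 genes were listed as known hypoxia-response genes, many of them HIF targets, a high share was to be looked for and is no independent result. The stricter ACGTG was found for 17 of the 28 (60.7%) and for 24.6% of the tested genes. Among the 9 listed genes that were high in KOAC8-6 and KOAC10-5 alone, 8 held ACGTG (88.9%), among the 10 that were high in all KO embryos 6 did, and among the other 9 genes 3 did. The median GC content of these stretches fell in the same order, from 69.6% to 65.4% and 61.6%, and its part in that order was not tested. These groups are small and were formed from the KO and WT values known when the genes were chosen, so nothing is read from the order. GC content differed too, with a median of 64.4% over the members' stretches and 60% over those of tested genes. Among the 4329 tested genes whose GC content lay between the lower and upper quartile of the members (median 63.6%), 68.3% held a match and 27.1% held ACGTG. A match is a run of letters, not a measured binding site.

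Stretches of 60 bases that lie upstream of the annotated gene and hold the densest matches are shown for 5 genes high in 2 KO embryos and 3 genes high in all 3, written in the direction of transcription with matches on either strand in capitals. Adm and Stc2, also high in all 3, had such stretches with 2 matches each, which are not shown. The order of those shown is Bnip3, P4ha1, Pdk1, Fam162a and Egln3, then Ddit4, Hk2 and Ak4.
Bnip3, chr7:138909582-138909641 (- strand): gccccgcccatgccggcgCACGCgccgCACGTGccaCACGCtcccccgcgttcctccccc
P4ha1, chr10:59323124-59323183 (+ strand): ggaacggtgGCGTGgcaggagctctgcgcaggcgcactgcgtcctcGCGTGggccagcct
Pdk1, chr2:71873119-71873178 (+ strand): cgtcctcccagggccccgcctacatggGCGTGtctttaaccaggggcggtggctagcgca
Fam162a, chr16:36071595-36071654 (- strand): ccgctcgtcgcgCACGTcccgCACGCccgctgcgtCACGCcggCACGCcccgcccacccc
Egln3, chr12:54204065-54204124 (- strand): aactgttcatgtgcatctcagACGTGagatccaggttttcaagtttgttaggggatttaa
Ddit4, chr10:59951853-59951912 (- strand): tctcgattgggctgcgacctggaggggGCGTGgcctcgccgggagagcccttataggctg
Hk2, chr6:82774474-82774533 (- strand): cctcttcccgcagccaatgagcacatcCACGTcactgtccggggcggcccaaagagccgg
Ak4, chr4:101419207-101419266 (+ strand): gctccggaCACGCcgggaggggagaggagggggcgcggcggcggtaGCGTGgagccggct

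The 6 oxygen sensors and HIF subunits differed little as a class, by 0.06 in median log2 fold change. The classes were not tested against each other. Hif1a, the alpha subunit of HIF-1 (chr12:73901375-73947530), had FPKM values of 49.7, 47.5 and 45.1 in KO embryos and 47.2, 48.7, 44.2 and 45.8 in WT embryos. The genotypes overlapped almost wholly, with a log2 fold change of 0.03 and a 95% interval of -0.10 to 0.16. Epas1, which encodes the alpha subunit of HIF-2, was at 4.98, 4.88 and 5.49 FPKM in KO and 4.49, 4.41, 5.49 and 4.69 FPKM in WT. Its groups overlapped as well, since KOAC10-8 and the WT embryo KOAC9-1 had the same value to 3 digits. Arnt, the shared partner, and Vhl, which recognizes hydroxylated HIF, had log2 fold changes of -0.08 and -0.05.

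The hydroxylases of this class, Egln3 and Egln1, are themselves HIF targets, and their groups overlapped as well. Egln3 (PHD3) was at 6.71 and 6.44 FPKM in KOAC8-6 and KOAC10-5, 3.70 in KOAC10-8, and 4.08, 4.37, 3.88 and 4.32 in the WT embryos. KOAC8-6 and KOAC10-5 thus had 1.61 and 1.55 times the WT mean, while KOAC10-8 was the lowest of the 7 embryos. Its log2 fold change was 0.32, with 0.55 when KOAC10-8 was left out and 0.20 when KOAC8-6 was. Egln1 (PHD2), the main oxygen sensor, was at 29.1, 32.5 and 27.5 FPKM in KO and 26.5, 28.0, 25.5 and 28.9 FPKM in WT. KOAC10-5 was the highest and KOAC8-6 only just above the highest WT embryo, while KOAC10-8 lay inside the WT range. The log2 fold change was 0.12, with 0.05 when KOAC10-5 was left out.

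The 3 angiogenic and secreted factors were the class in which KOAC10-8 did not lag. Vegfa, the main growth factor of endothelial cells (chr17:46016993-46032369), reached 92.1, 94.6 and 114 FPKM in KO and 64.3, 59.8, 62.9 and 67.6 FPKM in WT. Every KO embryo was far above every WT embryo, and KOAC10-8 was the highest, with means of 100.3 ± 12.0 (SD, n = 3) and 63.6 ± 3.24 (SD, n = 4). The ratio of means was 1.58 and the log2 fold change 0.64 ± 0.08 (SE). Adm, the vasodilator peptide adrenomedullin, was at 2.65, 2.55 and 2.69 FPKM in KO and 1.43, 2.08, 2.42 and 1.496 FPKM in WT. The KO embryos were close to each other and just above the highest WT embryo.

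Stc2, a secreted glycoprotein of calcium handling and stress, was at 2.18, 1.51 and 8.54 FPKM in KO and 1.19, 0.982, 1.07 and 1.19 FPKM in WT. The genotypes did not overlap, but most of the difference came from 1 embryo, for the log2 fold change was 1.01 with all embryos and 0.42 without KOAC10-8. That embryo was also the one with high transcripts of the integrated stress response, and their part in the Stc2 value was not tested.

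**Figure D3:**
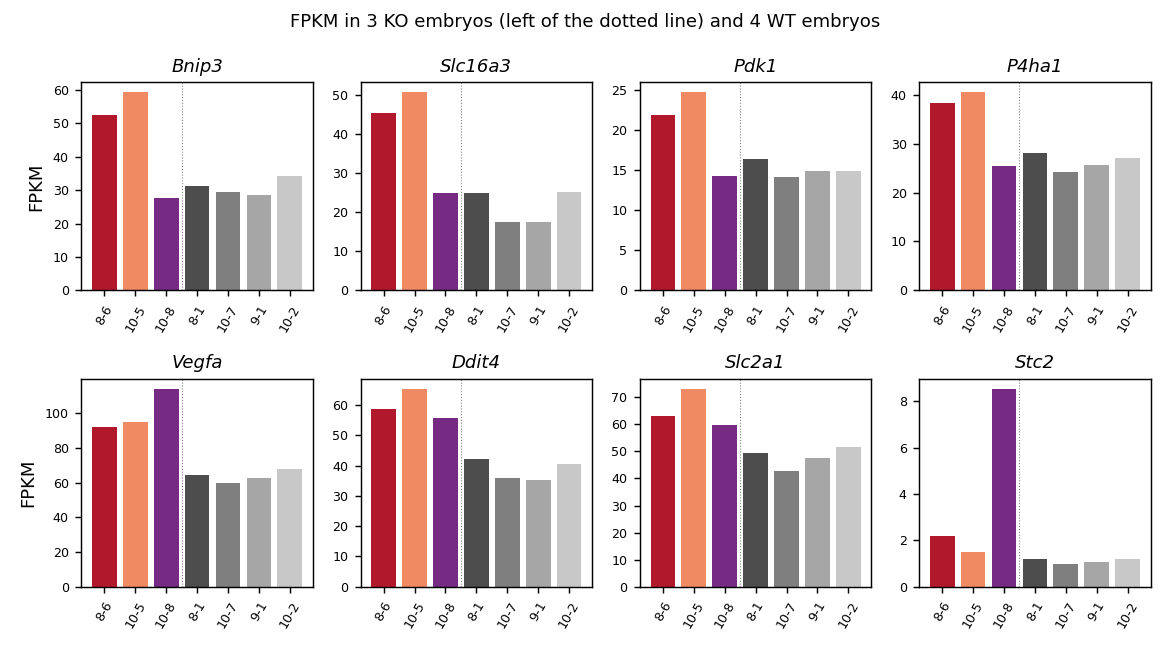
Bars give the FPKM of 8 genes in each of the 3 KO embryos (left of the dotted line) and 4 WT embryos, with a y axis from 0 for each gene. In the upper row KOAC10-8 is at the WT level (Bnip3 27.8, Slc16a3 25.1, Pdk1 14.2 and P4ha1 25.4 FPKM), while in the lower row it is above every WT embryo (Vegfa 114, Ddit4 55.6, Slc2a1 59.8 and Stc2 8.54 FPKM).

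The collagen-modifying enzymes did not move together. P4ha1, a catalytic subunit of collagen prolyl 4-hydroxylase (chr10:59323296-59373304), was at 38.4, 40.5 and 25.4 FPKM in KO and 28.1, 24.2, 25.6 and 27.1 FPKM in WT. KOAC8-6 and KOAC10-5 had 1.46 and 1.54 times the WT mean and KOAC10-8 lay inside the WT range, which gave a log2 fold change of 0.37 ± 0.16 (SE), with 0.57 when KOAC10-8 was left out and 0.24 when KOAC10-5 was. P4ha2, the related subunit, was at 21.6, 29.6 and 15.9 FPKM in KO and 19.4, 22.6, 20.4 and 28.8 FPKM in WT. Here the KO embryos spanned the whole WT range, from below its lowest to above its highest value.

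Plod1, a lysyl hydroxylase of collagen, was at 19.7, 19.8 and 14.9 FPKM in KO and 19.7, 19.4, 21.7 and 18.8 FPKM in WT. Its log2 fold change of -0.14, the most negative among the 34 genes, came from KOAC10-8, for without it the value was -0.01. Plod2, the other lysyl hydroxylase of the list, had a log2 fold change of -0.04, and its lowest value, 30.6 FPKM, was also in KOAC10-8. In KOAC10-8 the median of the class was -0.33 against the WT mean, with 0.02 in KOAC8-6 and 0.22 in KOAC10-5.

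Among the 6 genes of mitophagy and mitochondria, 3 showed large differences and 3 small ones. Bnip3, a receptor that tags mitochondria for autophagy (chr7:138890836-138909519), was at 52.5, 59.3 and 27.8 FPKM in KO and 31.2, 29.6, 28.4 and 34.2 FPKM in WT. KOAC8-6 and KOAC10-5 stood at 1.70 and 1.92 times the WT mean, whereas KOAC10-8 was the lowest of all embryos. The log2 fold change was 0.51 ± 0.24 (SE), with 0.84 when KOAC10-8 was left out and 0.30 when KOAC10-5 was. The libraries were not made to keep strand, 22.3% of the exon bases of Bnip3 lie opposite exons of Gm45507, and 13.5% of its stretches of 50 bases occur in Gm16439, so a part of its value is uncertain.

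Pdk1, the kinase that shuts pyruvate out of the mitochondrial citrate cycle, followed Bnip3. It was at 21.8, 24.7 and 14.2 FPKM in KO and 16.4, 14.2, 14.9 and 14.9 FPKM in WT. Again KOAC10-8 was at the bottom of the WT range, at 0.941 times the WT mean, and the log2 fold change was 0.37, with 0.59 when it was left out and 0.21 when KOAC10-5 was. Ak4, an adenylate kinase of the mitochondrial matrix, was at 13.0, 13.6 and 9.08 FPKM in KO and 7.18, 6.76, 5.69 and 8.41 FPKM in WT. KOAC10-8 was lower than the other KO embryos here too, but stayed above all WT embryos, and the log2 fold change was 0.68. Of the stretches of 50 bases in Ak4 transcripts, 10.19% also occur in Ak3l2-ps.

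The remaining members of the class had log2 fold changes of -0.01 for Bnip3l, a mitophagy receptor related to Bnip3, 0.09 for Fam162a and 0.10 for Higd1a. Fam162a and Higd1a encode small mitochondrial proteins, and both were highest in KOAC10-5, at 164 and 55.7 FPKM. All of them were abundant, with WT means of 96.4, 145 and 50.2 FPKM. Bnip3l shares 20.8% of its stretches of 50 bases with Bnip3l-ps, which was listed at no more than 3.95 FPKM, and of the exon bases of Fam162a and Higd1a, 19.8% and 22.5% lie opposite exons of other genes.

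Glucose uptake, the first steps of glycolysis and lactate export made up 8 genes, with a median log2 fold change of 0.31. Slc2a1, the glucose transporter GLUT1 (chr4:119108711-119137983), was at 63.0, 73.2 and 59.8 FPKM in KO and 49.4, 42.6, 47.6 and 51.6 FPKM in WT. All KO embryos were above all WT embryos, with a ratio of means of 1.37 and a log2 fold change of 0.44 ± 0.09 (SE). Hk2, the inducible hexokinase, was at 13.2, 13.0 and 11.2 FPKM in KO and 9.15, 7.82, 7.02 and 8.63 FPKM in WT. It too separated the genotypes, at a log2 fold change of 0.56, whereas Hk1, the hexokinase of most tissues, was at -0.08 with overlapping groups.

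Slc16a3, the lactate exporter MCT4 (chr11:120948480-120960868), was at 45.4, 50.8 and 25.1 FPKM in KO and 25.01, 17.6, 17.5 and 25.2 FPKM in WT. KOAC8-6 and KOAC10-5 had 2.13 and 2.38 times the WT mean, and KOAC10-8 was level with the 2 higher WT embryos. Its log2 fold change of 0.85 was exceeded among the 34 genes only by that of Stc2. Slc2a3 (the transporter GLUT3), Pfkp (a phosphofructokinase), Pfkfb3 and Pfkfb4 (which make and break down the activator of phosphofructokinase) had log2 fold changes of 0.32, 0.29, 0.28 and 0.11. Exons of Pitrm1 lie opposite 5.58% of the exon bases of Pfkp. Pitrm1 was at 55.9 to 68.7 FPKM over the embryos, so a part of the Pfkp value is uncertain.

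The last class held 7 genes for pH, chromatin and feedback on growth, of which 6 had a higher mean in KO. Ddit4, an inhibitor of mTOR signaling (chr10:59949669-59951834), was at 58.8, 65.4 and 55.6 FPKM in KO and 42.2, 36.0, 35.4 and 40.7 FPKM in WT. The genotypes were widely apart in every KO embryo, with a ratio of means of 1.55 and a log2 fold change of 0.62 ± 0.09 (SE). Bhlhe40, a transcriptional repressor, was at 3.90, 3.40 and 3.45 FPKM in KO and 2.15, 2.35, 2.49 and 2.52 FPKM in WT. It separated the genotypes as well, at 0.44.

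Ankrd37, an ankyrin repeat protein and HIF target, was at 15.1, 14.6 and 10.9 FPKM in KO and 8.89, 7.48, 6.59 and 11.0 FPKM in WT. KOAC10-8 was just below the highest WT embryo, and the log2 fold change was 0.62. Exons of Lrp2bp lie opposite 22.7% of the exon bases of Ankrd37, but that gene was at no more than 0.326 FPKM in any embryo. Kdm3a, a histone demethylase, and Mxi1, an antagonist of MYC, had log2 fold changes of 0.41 and 0.15 and all KO embryos above all WT embryos. Car9, the carbonic anhydrase of acid export, was at 0.21 with the highest value in a WT embryo, and Ndrg1 was at -0.10. Exons of Gm12454, at 1.39 to 2.08 FPKM over the embryos, lie opposite 9.29% of the exon bases of Car9. A part of the Car9 value is therefore uncertain.

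**Figure D4:**
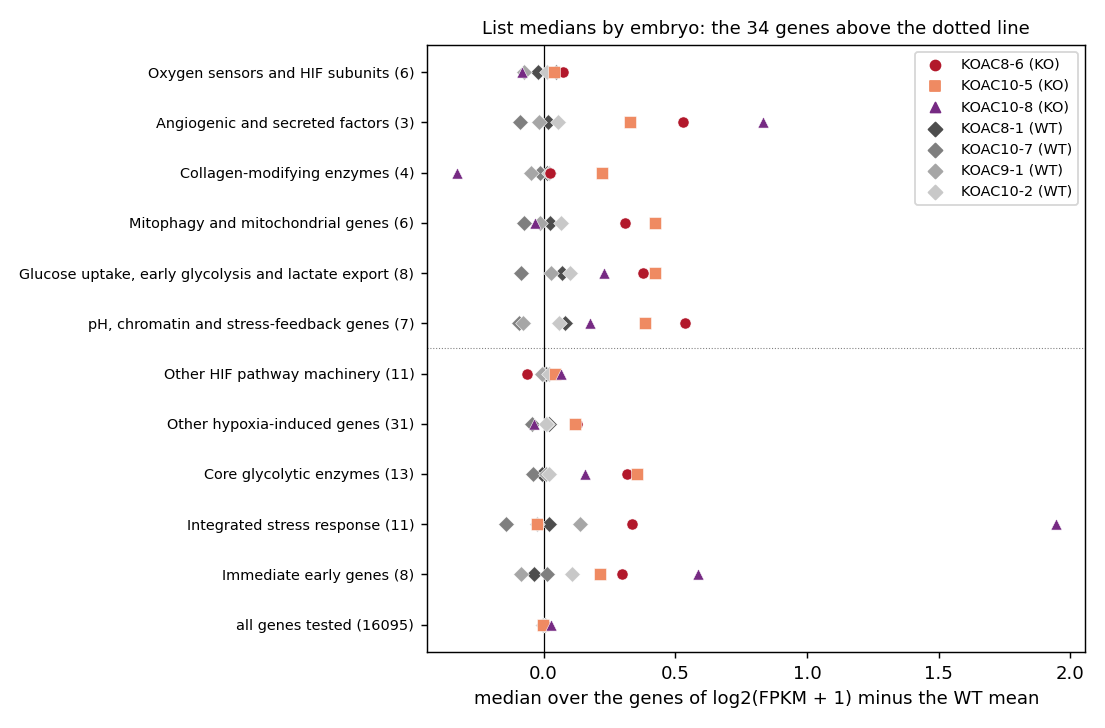
Each symbol is the median over a list, with the number of genes tested in parentheses, of log2(FPKM + 1) minus the mean of the 4 WT embryos in 1 embryo. KOAC8-6 and KOAC10-5 exceed KOAC10-8 in every class above the dotted line but the secreted factors, where KOAC10-8 is at 0.83, and KOAC10-8 is far to the right at 1.94 for the integrated stress response.

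The rest of the pathway was read from lists that the choice of the 34 genes did not include. These lists and those that follow were also chosen with earlier results of these data known. Their counts and p-values are therefore a description too. Of 11 further components of HIF control, among them Hif3a, Egln2, Hif1an, Cul2 and Ep300, 0 had an adjusted p under 0.05 in limma and 0 an unadjusted p under 0.05. Of 32 further hypoxia-induced genes, 31 could be tested, since Epo was below 1 FPKM. By limma, 9 of the 31 (29.0%) passed an unadjusted p of 0.05, all higher in KO, where 5.27% of all genes did, and 0 passed after adjustment. All KO embryos exceeded all WT embryos in 7 of the 31, where 5.61% of all genes did. Their median log2 fold change was 0.08, with 22 higher and 9 lower, and by embryo the median was 0.13 in KOAC8-6, 0.12 in KOAC10-5 and -0.04 in KOAC10-8.

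Flt1, the VEGF receptor that also acts as a decoy, was at 7.41, 6.22 and 6.51 FPKM in KO and 4.48, 3.96, 4.29 and 4.55 FPKM in WT. Every KO embryo was above every WT embryo, with a log2 fold change of 0.53 ± 0.08 (SE), an unadjusted p of 0.000252 and an adjusted p of 0.212 in limma. Ndufa4l2, a mitochondrial protein induced by HIF, was at 2.93, 2.79 and 3.20 FPKM in KO and 1.55, 1.69, 2.49 and 1.98 FPKM in WT, and had a limma adjusted p of 0.307. Tmem45a was at 5.91, 9.07 and 6.36 FPKM in KO and 4.85, 4.03, 4.57 and 3.86 FPKM in WT, with a limma adjusted p of 0.286. In both, all KO embryos were above all WT embryos. Lox, the collagen cross-linking enzyme, had the lowest log2 fold change of the list, -0.61, with overlapping groups and a limma adjusted p of 0.457.

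The core glycolytic enzymes showed the same order of KO embryos as the 34 genes, with medians of 0.32 in KOAC8-6, 0.35 in KOAC10-5 and 0.16 in KOAC10-8. Of the 13 enzymes, 8 had a limma unadjusted p under 0.05 as higher and 1 as lower, and 0 an adjusted p under 0.05. Over all genes, 5.27% passed as higher and 6.19% as lower at the unadjusted threshold, and the counts of the lists that follow are to be read beside these shares. Pgk1 was at 312, 325 and 283 FPKM in KO and 225, 237, 216 and 251 FPKM in WT. Ldha, which turns pyruvate into lactate, was at 637, 620 and 523 FPKM in KO and 447, 387, 431 and 457 FPKM in WT. In Pgk1, Ldha and Aldoa all KO embryos were above all WT embryos, with ratios of means of 1.32, 1.38 and 1.30 and the same limma adjusted p of 0.274.

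Lists of stress genes did not follow that order. For 8 immediate early genes, which respond to handling as well as to signals, the medians were 0.30, 0.21 and 0.59, with KOAC10-8 highest. Of these 8, 5 had a limma unadjusted p under 0.05 (all higher in KO) and 0 an adjusted p under 0.05. Ier3, a regulator of cell survival, was at 1.94, 2.26 and 2.40 FPKM in KO and 1.40, 1.21, 1.58 and 1.41 FPKM in WT. Every KO embryo exceeded every WT embryo for it, as for Junb and Fos, subunits of the AP-1 factor, whose ratios of means were 1.53 and 1.81. For the integrated stress response 1 of 11 had an unadjusted p under 0.05, namely Atf3, at 2.16, 1.62 and 7.45 FPKM in KO and 1.51, 0.945, 1.20 and 1.17 FPKM in WT. Its log2 fold change was 0.91 with a limma adjusted p of 0.432.

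Markers of cell types were read beside these genes. The 8 markers of skeletal muscle, of which Actc1 was the most abundant, summed to 218, 231 and 198 FPKM in KO and 303, 295, 377 and 295 FPKM in WT (two-sided exact permutation over the embryos, p = 0.0286, which is the lowest value 35 splits can give). By limma 7 of the 8 had an unadjusted p under 0.05 as lower and 0 an adjusted p under 0.05. The 8 endothelial markers, of which Cdh5 was the most abundant, summed to 118, 117 and 125 FPKM in KO and 111, 114, 119 and 115 FPKM in WT (two-sided exact permutation, p = 0.143). The sums overlapped. By limma 2 of the 8, Kdr and Pecam1, had an unadjusted p under 0.05 as higher and 0 an adjusted p under 0.05, and in 4 of the 8 every KO embryo exceeded every WT embryo, where 5.61% of all genes did. Kdr, the receptor of VEGF-A, had the highest log2 fold change of that list at 0.19, with a limma adjusted p of 0.286. Of the 8, 6 had a higher and 2 a lower mean in KO. The lower ones were Cdh5 and Cldn5, with log2 fold changes of -0.01 and -0.16.

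The 7 markers of neural progenitors, led by Fabp7, summed to 661, 728 and 740 FPKM in KO and 598, 602, 644 and 683 FPKM in WT (two-sided exact permutation, p = 0.114). By limma 6 of the 7 had an unadjusted p under 0.05 as higher and 0 an adjusted p under 0.05. The 3 primitive erythroid globins, led by Hbb-y, summed to 14025, 11021 and 15160 FPKM in KO and 17517, 15744, 15051 and 20390 FPKM in WT (two-sided exact permutation, p = 0.0857). By limma 1 of the 3, Hbb-y, had an unadjusted p under 0.05 as lower and 0 an adjusted p under 0.05. Hbb-y was at 9229, 7940 and 9426 FPKM in KO and 13025, 12173, 12130 and 15294 FPKM in WT, with a log2 fold change of -0.57. The globins did not move together. Hbb-bh1 went the other way, at 2543, 1449 and 2847 FPKM in KO and 1852, 1514, 1007 and 2001 FPKM in WT. Its log2 fold change was 0.51, and that of Hba-x was -0.12, both with overlapping groups. By two-sided exact permutation, the sums for heart (p = 0.0857), neurons (p = 0.8286), macrophages (p = 0.257) and proliferation (p = 0.171) did not pass 0.05. Of the 7 heart markers, 3 had a limma unadjusted p under 0.05 as higher and 0 an adjusted p under 0.05. Trophoblast markers summed to no more than 0.964 FPKM in any embryo. Within the KO embryos, liver and globin sums were lowest in KOAC10-5 and highest in KOAC10-8, the reverse of the order of the medians of the 34 genes. The WT embryos did not share that order. KOAC10-7, with little liver, had the lowest median (-0.06). KOAC10-2, which also had little liver but the largest globin sum, had the highest (0.06). Transcripts encoded in mitochondria made up 5.84%, 7.47% and 8.81% of the summed FPKM in KO and 6.22%, 8.43%, 7.05% and 6.85% in WT. The part of liver, muscle, neural and erythroid transcripts in the KO and WT values of the 34 genes was not tested.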

How the data were processed

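RNA of 3 KO and 4 WT embryos was sequenced from TruSeq RNA v2 libraries, which do not mark strand. The authors deposited FPKM values per gene and embryo, and the submitters' processing notes name Salmon, DESeq2, MultiQC and GRCm38, without versions. Of the authors' own comparison, the mean signal per gene (counts divided by size factors) served to estimate relative depth from the steps between low FPKM values and to choose between rows of 1 symbol; the deposited log2 fold changes with their errors and the deposited p-values were not used. Read depth is unknown here, and 0 FPKM columns were left unmapped. Values were analyzed as log2(FPKM + 1), for genes averaging 1 FPKM or more, with limma 3.58.1 in R 4.3.3 (lmFit, eBayes with trend, no covariate) and Benjamini-Hochberg adjustment at 0.05. The steps were tested on simulated data. Single sums were compared by exact permutation. Replicates are single embryos, whose litters are not given.

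The 34 genes and all lists were chosen with earlier results of these data known. Values in every embryo are given for Hif1a, Vegfa, Slc2a1 and up to 3 genes per class with the largest absolute log2 fold change. From the pathway, glycolysis, stress and immediate early lists up to 3 genes with the smallest unadjusted p under 0.05 are named. Chac1, Lox, Kdr, Pecam1, Cldn5, Hbb-y, Hbb-bh1, Hba-x and Ttr were added after their values were seen, as was the log2 fold change of Cdh5. Aldoa and Ddit3 have several rows, of which the one with the largest mean signal was used. Ero1a was matched as Ero1l, and Prl3d1 was not analyzed here. Positions and exon overlaps are from GENCODE annotation of GRCm38. Alternatives were other pseudocounts, filters, scalings and covariates, weights, robust fitting and leaving out each embryo.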

Additional observations from a re-analysis of the deposited data

Results flagged for a closer look

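Among 124 values examined in the 4 WT embryos, 5 had 1 embryo far from the others, judged by its gap to the nearest embryo as a share of the range, which was above Dixon's 95% critical value for 4 samples. Chance alone would give about 1 in 20, or 6.2. None of the 5 is one of the 34 genes. KOAC9-1 was the highest WT embryo for Car12 (2.76 FPKM, nearest 1.38, gap share 0.831), for Eno1 (505 FPKM, nearest 316, gap share 0.856) and for the summed skeletal muscle markers (377 FPKM, nearest 303, gap share 0.894). It was the lowest for Phgdh (96.5 FPKM, nearest 103, gap share 0.862). KOAC10-2 was the highest for the summed trophoblast markers (0.519 FPKM, nearest 0.296, gap share 0.834), a level near 0. The KO group, with 3 embryos, was not examined in this way.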

How the results depend on the processing

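The median log2 fold change of the 34 genes was positive under all 18 alternatives, from 0.19 without KOAC8-6 to 0.31 with a pseudocount of 0.1. The number of genes called among all tested was 6, with 10 under log2 Afp as a covariate, which was added after seeing the data, 4 at a minimum mean of 5 FPKM, and 7 to 12 when 1 embryo was left out (12 without KOAC8-1). Members with an adjusted p under 0.05 numbered 0, except for 1, Vegfa, when FPKM was rescaled to a common sum (adjusted p of 0.0482 in limma, which is no test of a gene selected on this contrast). Members with an unadjusted p under 0.05 numbered 15, and 9 to 17 when 1 embryo was left out, the lowest without KOAC10-5, with 18 under embryo quality weights. Over all genes tested that count was 1846, with 2630 without KOAC10-5 and 2190 under the weights. Members with every KO above every WT embryo numbered 12, from 12 to 22 when 1 embryo was left out (22 without KOAC10-8), 8 after rescaling to a common sum and 10 after quantile normalization, where 5.01% and 5.54% of all genes showed that pattern. Of the other pathway genes, 9 had an unadjusted p under 0.05, with 6 to 10 over all alternatives. The values of Hif1a and P4ha2 and the medians of all genes, of the sensor class and of the collagen class changed sign under at least 1 alternative (the collagen median was 0.11 without KOAC10-8). No paired analysis was possible because replicate numbers pair no embryos; with the label series as a block, 7 genes were called and 13 members had an unadjusted p under 0.05. The cause of these shifts was not tested. The depth of the libraries is unknown here, and Car9 and Adm had the lowest mean signal of the 34 genes in the authors' table.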
